A study of Mus musculus with 26 samples.

Results

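Forkhead genes encode winged-helix transcription factors that bind DNA through a shared forkhead domain. The family holds pioneer factors that can open closed chromatin and partners of Smad proteins in Nodal signalling. It also holds the FoxO factors, several of which insulin and AKT signalling keeps out of the nucleus. Many other members specify single lineages after gastrulation. In pluripotent cells a few members are known for roles in maintenance or exit (Foxd3, Foxo1, an embryonic stem cell isoform of Foxp1) or in the response to Nodal (Foxh1), while most lineage members act later.

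Members were the protein-coding genes of the GRCm38 gene table whose symbols are Fox, a letter from a to s, a number and at most 1 further letter, with Foxa2 left out. This gave 43 of 21887 protein-coding genes. The measurement was ATAC-seq, which marks open chromatin by the insertion of a transposase, and each of 26 mouse libraries was represented by its own list of called peaks. The value of a gene was the number of listed peaks that touched its window, meaning the gene span plus 20 kb on each side. The first set held 18 libraries. Naive embryonic stem cells in 2iL (ES, passage 16) had 3. Formative stem cells in A3XR (FS) had 3 of FS1 at passage 21 and 3 of FS2 at passage 29. Epiblast stem cells (EpiSC) had 3 in AF at passage 22, and in AFX 3 of EpiSC_AFX1 at passage 14 and 3 of EpiSC_AFX2 at passage 16. The other 8 libraries, whose source labels begin with Rd2 and are grouped here as a second set, held ES in 2iL at passage 33 (2), epiblast-like cells (EpiLC) induced from ES in AF with KSR for 2 days and sorted for low GFP (4), and EpiSC in AFX at passage 16 (2). The labels give no strain or sex, the Rd2 titles carry WT, and the source label of the Rd2 ES libraries names GFP. The EpiLC titles number the 4 libraries as 2 pairs, so these may not be 4 separate samples. Libraries are numbered within a group and no label says that they came from separate cultures, so every p-value measures only the spread between these libraries, which may be technical.

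The lists held 8044 to 10961 peaks in ES, 11796 to 14147 in FS2 and 15505 to 31263 in the other groups of the first set. They held 471 and 2576 in Rd2 ES, 7469 to 26045 in EpiLC and 10719 and 11252 in Rd2 EpiSC. A longer list tends to hold more peaks per gene, so cell types of the first set were compared on the 8044 peaks of lowest p in each list (equal lists). The lists as deposited are given separately and named so. Marker windows were counted on equal lists. Naive markers (13 genes) summed to 10 to 11 peaks per ES library and 3 to 7 in the other first-set libraries, with Zfp42 and Tbx3 at 0 outside ES. Formative markers (11 genes) summed to 1 to 3 in ES, 7 to 10 in FS, 11 to 13 in EpiSC_AF and 11 to 15 in EpiSC_AFX, so the cells labelled formative were below every EpiSC library. These sums part ES from the rest but do not single out FS, and primed markers (11 genes) overlapped, with 1 to 3 in ES, 1 to 4 in FS, 4 to 6 in EpiSC_AF and 1 to 5 in EpiSC_AFX. Feeder fibroblast markers (8 genes) summed to 2 to 5 and extraembryonic endoderm markers (6 genes) to 1 to 5, with overlapping ranges in every cell type, and Col1a2, Postn and Sox7 were at 0 in all 18 libraries.

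The forkhead windows held fewer strong peaks in ES than in the other cell types. On equal lists a library had 14, 20 and 15 distinct forkhead peaks in ES, 23, 22 and 31 in FS1, 17, 26 and 19 in FS2, 27, 27 and 25 in EpiSC_AF, 31, 29 and 25 in EpiSC_AFX1 and 28, 27 and 29 in EpiSC_AFX2. ES was below every EpiSC library, while its highest library overlapped the 2 lowest FS libraries, both FS2. The means were 16.3 ± 3.22 (SD, n = 3) in ES, 23 ± 5.02 (n = 6) in FS, 26.3 ± 1.16 (n = 3) in EpiSC_AF and 28.2 ± 2.04 (n = 6) in EpiSC_AFX. Per Mb of window this was 4.20, 5.92, 6.77 and 7.24, beside 4.50, 5.05, 5.08 and 5.10 for the windows of all protein-coding genes. The mean density in forkhead windows was thus below that of all genes in ES and above it in the other cell types. Single libraries departed from this, since ES library 2 was above all genes (5.14 against 4.55) and FS2 libraries 1 (4.37 against 4.99) and 3 (4.89 against 5.00) were below. In the short deposited lists of Rd2 ES the densities were 0.772 against 0.281 and 1.54 against 1.66. On equal lists the mean share of members with any peak was lower than that of all genes in each cell type. It was 29.5% against 40.2% in ES, 37.6% against 45.1% in FS, 38.8% against 45.4% in EpiSC_AF and 43.4% against 45.4% in EpiSC_AFX. Single EpiSC_AFX libraries were above all genes, such as EpiSC_AFX1 library 2 (48.8% against 45.9%). Outside ES, forkhead windows on equal lists thus held on average more peaks per Mb, but a smaller share of members than of all genes had a peak. With the deposited lists this share was also smaller in ES, at 32.6% against 44.8%. There it was larger in the other cell types, at 74.8% against 67.4% in FS, 82.95% against 70.4% in EpiSC_AF and 86.4% against 74.2% in EpiSC_AFX. The median window was 45.6 kb for members and 57.2 kb for all genes. Parted by line, FS1 had a mean of 25.3 and FS2 of 20.7 forkhead peaks.

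**Figure D1:**
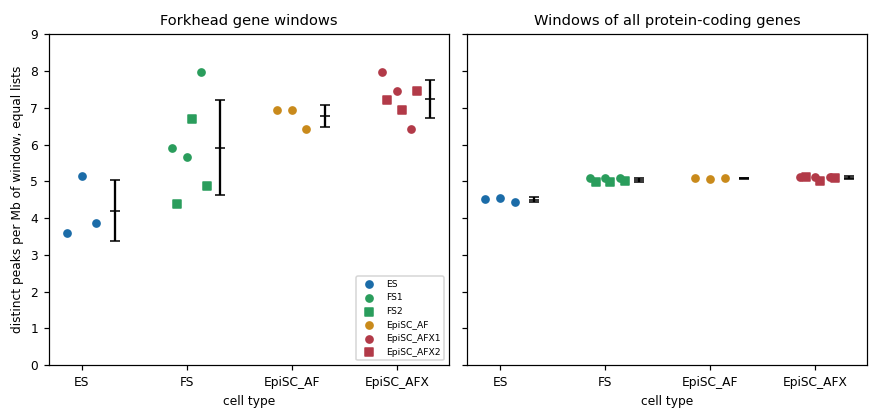
Distinct peaks per Mb of window on equal lists (vertical axis) by cell type, for the forkhead windows (left) and the windows of all protein-coding genes (right); points are libraries, circles and squares part the lines of a cell type, and black bars are mean ± SD. Forkhead windows range from 4.20 in ES to 7.24 in EpiSC_AFX on average, whereas all genes range from 4.50 to 5.10.

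On equal lists 11 of the 43 members had no peak in any first-set library (25.6%, beside 25.7% of all genes), and 10 of these are lineage factors. They were Foxa1, Foxb1, Foxb2, Foxd3, Foxe1, Foxf1, Foxf2, Foxi1, Foxi2, Foxl2 and Foxs1. A further 6 members (Foxd2, Foxd4, Foxe3, Foxj3, Foxn4 and Foxp4) had a peak in 1 or 2 libraries. Foxk2 had 1 peak in all 18. The remaining 25 were tested. Members with a peak in all 18 libraries were Foxh1, Foxj2, Foxk2, Foxm1 and Foxo6 (11.6%, beside 14.3% of all genes). In the deposited lists 42 of 43 members had a peak in at least 1 first-set library, and only Foxi1, a factor of the inner ear and kidney, had none in any of the 26. Per 100 kb of window and library, Foxh1 was highest on equal lists (6.34 peaks), followed by Foxo6 (4.52), Foxj2 (3.41) and Foxk1 (2.54), whereas the very long genes Foxp1 (0.0610) and Foxp2 (0.0287) were among the lowest with a peak. Some values are not separate: Foxd2 and Foxe3 share windows, as do Foxf1, Foxc2 and Foxl1, and 27 members have another protein-coding gene in their window.

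**Figure D2:**
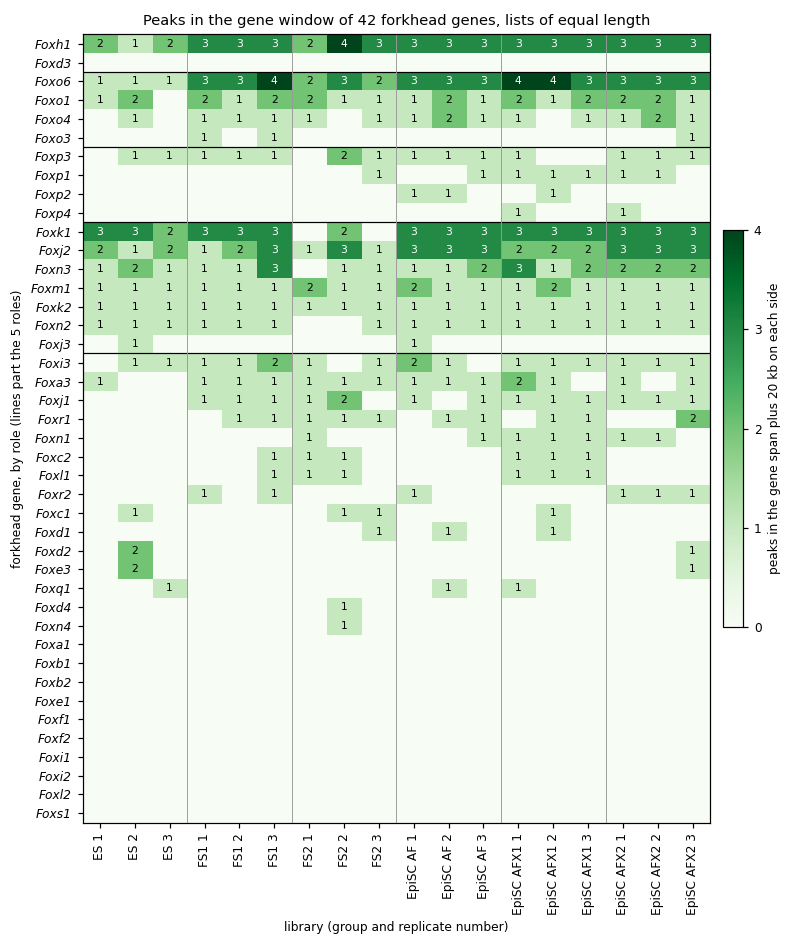
Number of peaks (colour and digit) in the windows of 42 of the 43 forkhead genes (rows, by role) in each of the 18 first-set libraries (columns) on equal lists; empty cells are 0. Foxh1, Foxo6, Foxk1 and Foxj2 form the dense rows, Foxo6 has 1 peak in each ES library and 2 to 4 elsewhere, and 11 rows are empty.

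Promoter sequences in the RefSeq table (GRCm38) covered 27 members with 30 start sites, and the 250 bases before each start were searched. The sequences shown are those of starts with a peak in all or nearly all first-set libraries (Foxk2, Foxo1), of starts with a peak in most libraries except ES (Foxi3, Foxp1, Foxp4), of the pluripotency member Foxd3, whose start seldom had a peak, and of Foxa1, the only window with a forkhead core. Capitals mark the forkhead core TGTTTAC, the octamer ATGCAAAT, the GC box GGGCGG and the CCAAT box CCAAT, each searched on both strands; none of these motifs contains another.
Foxk2, chr11:121259737-121259986, plus strand: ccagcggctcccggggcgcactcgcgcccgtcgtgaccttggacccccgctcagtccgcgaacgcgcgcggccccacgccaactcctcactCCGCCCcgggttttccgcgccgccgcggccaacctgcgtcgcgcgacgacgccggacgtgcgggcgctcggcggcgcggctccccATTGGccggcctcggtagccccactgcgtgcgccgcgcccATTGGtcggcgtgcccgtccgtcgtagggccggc
Foxo1, chr3:52268087-52268336, plus strand: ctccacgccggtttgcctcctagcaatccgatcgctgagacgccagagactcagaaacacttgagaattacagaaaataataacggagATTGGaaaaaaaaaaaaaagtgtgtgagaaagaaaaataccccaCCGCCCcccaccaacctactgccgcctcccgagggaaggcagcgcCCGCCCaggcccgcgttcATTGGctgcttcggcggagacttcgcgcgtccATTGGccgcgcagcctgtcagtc
Foxi3, chr6:70956356-70956605, plus strand: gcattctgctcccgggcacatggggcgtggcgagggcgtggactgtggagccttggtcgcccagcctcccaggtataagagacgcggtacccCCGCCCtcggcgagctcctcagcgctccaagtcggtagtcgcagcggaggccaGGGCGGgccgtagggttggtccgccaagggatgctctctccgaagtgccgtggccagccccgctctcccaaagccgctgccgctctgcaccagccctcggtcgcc
Foxp1, chr6:99028299-99028548, minus strand: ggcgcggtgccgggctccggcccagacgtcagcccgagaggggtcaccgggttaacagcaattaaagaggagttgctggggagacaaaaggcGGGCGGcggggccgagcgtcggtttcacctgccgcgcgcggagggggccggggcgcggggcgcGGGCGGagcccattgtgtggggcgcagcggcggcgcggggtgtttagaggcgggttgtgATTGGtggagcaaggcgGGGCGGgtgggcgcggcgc
Foxp4, chr17:47924633-47924882, minus strand: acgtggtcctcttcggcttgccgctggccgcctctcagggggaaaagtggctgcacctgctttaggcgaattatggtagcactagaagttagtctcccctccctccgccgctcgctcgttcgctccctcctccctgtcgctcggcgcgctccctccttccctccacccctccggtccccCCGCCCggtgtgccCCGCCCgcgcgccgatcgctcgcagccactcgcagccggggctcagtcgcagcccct
Foxd3, chr4:99656049-99656298, plus strand: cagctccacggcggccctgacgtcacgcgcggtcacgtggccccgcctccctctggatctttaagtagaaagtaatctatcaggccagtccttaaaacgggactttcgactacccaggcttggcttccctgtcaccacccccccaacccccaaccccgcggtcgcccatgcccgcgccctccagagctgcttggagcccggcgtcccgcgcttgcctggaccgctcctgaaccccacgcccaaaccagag
Foxa1, chr12:57546112-57546361, minus strand: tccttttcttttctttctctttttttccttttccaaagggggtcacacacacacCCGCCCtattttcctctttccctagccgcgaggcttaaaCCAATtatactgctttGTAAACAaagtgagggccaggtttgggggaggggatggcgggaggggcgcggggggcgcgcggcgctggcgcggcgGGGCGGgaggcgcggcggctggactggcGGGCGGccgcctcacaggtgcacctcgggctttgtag
The Foxk2 window had a peak in 18 of 18 first-set libraries on equal lists and that of Foxo1 in 17 of 18. Those of Foxi3 and Foxp1 had, in the deposited lists, a peak in 0 of 3 ES, 6 of 6 FS, 3 of 3 EpiSC_AF and 6 of 6 EpiSC_AFX libraries, and that of Foxp4 in 0, 6, 2 and 6. On equal lists these became 0, 4, 2 and 6 for Foxi3, 0, 1, 1 and 3 for Foxp1 and 0 in all 18 libraries for Foxp4, so the absence from ES did not part the cell types at the Foxp4 start there. In the deposited lists the Foxd3 window had a peak in 3 of 18 first-set libraries and the Foxa1 window in 1 of 18. On equal lists both were at 0 of 18. Over the family, the GC box stood in 70.0% of the 30 windows and in 42.6% of all 21263, the CCAAT box in 43.3% and 35.4%, the forkhead core in 3.33% (Foxa1 alone) and 2.62%, and the octamer in 0 windows and 1.58%. The median ratio of observed to expected CpG was 0.697 in forkhead windows and 0.530 in all. On equal lists a peak touched 8.89% ± 3.85 of forkhead promoter windows in ES (SD, n = 3), 11.1% ± 5.02 in FS (n = 6), 12.2% ± 3.85 in EpiSC_AF (n = 3) and 14.4% ± 1.72 in EpiSC_AFX (n = 6), beside 18.9%, 22.6%, 24.3% and 24.1% of all promoter windows. With the deposited lists the shares were 8.89% against 21.1% in ES, 35.0% against 39.5% in FS and 43.9% against 46.7% in EpiSC_AFX. In each of these cell types the mean share was smaller for forkhead starts than for all starts. Over all 26 deposited lists together, however, 70.0% of forkhead windows and 61.3% of all windows had a peak in at least 1 list. Members with no matched promoter entry included Foxh1, Foxj1, Foxk1, Foxm1, Foxo4 and Foxo6. Of the 213 regions formed by merging the peaks of all 26 lists in forkhead windows, 30.5% were inside a forkhead gene, 27.2% between genes, 20.7% within 1 kb of an end of a forkhead gene span and 3.29% at an end shared with another gene. A further 9.86% were at the end of another gene and 8.45% inside one. The gene table gives spans only, so exons, introns and untranslated regions were not told apart.

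ES was compared with FS to ask which forkhead loci differ between naive and formative cells. Foxo6, a FoxO factor, Foxh1, the Smad partner in Nodal signalling, and Foxj1, the factor of motile cilia, had fewer peaks in ES. These were the 3 of 25 tested members that were lower in ES with limma at an adjusted p under 0.05 (Benjamini-Hochberg over 13075 genes), where 10.6% of all tested genes were lower. The number higher was 0, where 3.87% of genes were higher. The median log2 difference, on the log2(peaks + 1) scale, was -0.26 over the members and -0.17 over all tested genes, and 72.0% of members and 58.9% of genes were below 0. Libraries did not overlap for 1 member, Foxo6, beside 2.7% of all genes that were lower in ES without overlap, and 0 were higher, beside 1.26%. The exact permutation test with the same adjustment called 0 members and 0 genes in every comparison. At an unadjusted exact p under 0.05 there were 3 members against FS (12%, beside 11.0% of all tested genes), 5 against EpiSC_AFX (20%, beside 13.6%) and 0 against EpiSC_AF. Limma's unadjusted p gave 5 (20%, beside 27.8%), 5 (20%, beside 28.9%) and 6 (24.0%, beside 24.0%). The smallest possible exact p is 0.0119 for 3 against 6 libraries and 0.1 for 3 against 3.

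Foxo6 and Foxh1 were also lower in ES than in both kinds of EpiSC, and Foxj1 was lower than in EpiSC_AFX. Against EpiSC_AFX, limma called 3 of 25 lower in ES (Foxo6, Foxh1, Foxj1), beside 11.6% of all genes, and 0 higher, beside 4.14%. Libraries did not overlap for these 3, beside 3.68% of genes, and 0 members were higher without overlap, beside 1.62%. The median was -0.40 over members and -0.17 over genes, with 80.0% and 59.7% below 0. Foxn1, the thymic epithelium factor, and Foxp1 both stood just outside the threshold, at -0.83 with an SE of 0.281 and a limma adjusted p of 0.0537. Against EpiSC_AF, limma called 2 of 25 lower in ES (Foxo6, Foxh1), beside 7.64% of genes, and 0 higher, beside 2.81%. There libraries did not overlap for Foxo6, Foxh1 and Foxj2, beside 5.94% of genes, and 0 members were higher, beside 2.17%. The 3 comparisons share the ES libraries. In each of them the number of members called was near the share of all genes called.

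**Figure D3:**
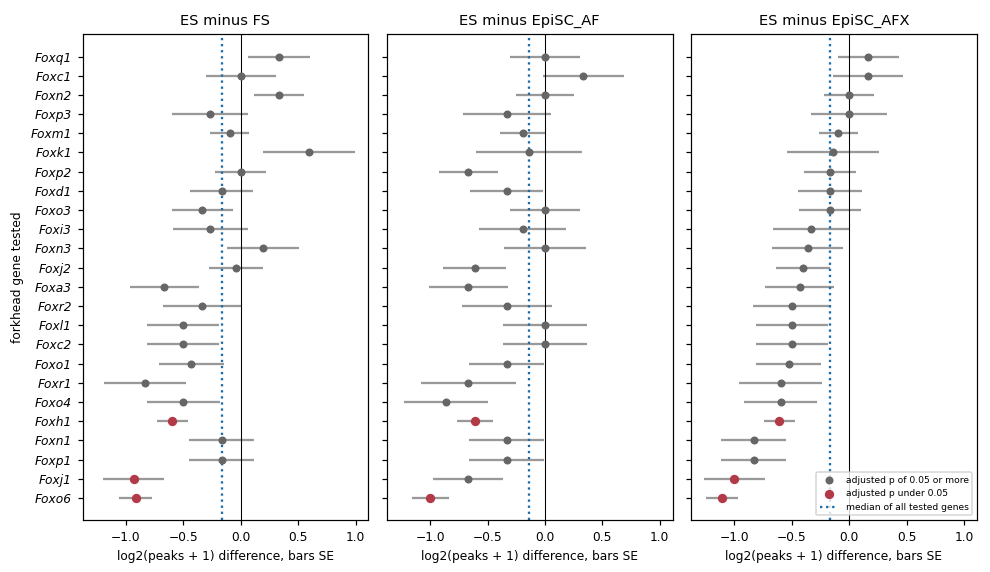
Difference in log2(peaks + 1) of ES from each other cell type (horizontal axis, points with SE bars from limma) for 24 of the 25 forkhead genes tested (rows); red points have an adjusted p under 0.05 and the dotted line is the median of all tested genes. Foxo6 and Foxh1 are red in all 3 panels and Foxj1 in those for FS and EpiSC_AFX, and every red point lies to the left of 0.

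Between FS, EpiSC_AF and EpiSC_AFX no forkhead gene passed the adjusted test, Foxo6 and Foxh1 included. Limma called 0 of 25 members in FS against EpiSC_AFX (0.191% of all genes were called), 0 in FS against EpiSC_AF (0.245%) and 0 in EpiSC_AF against EpiSC_AFX (0.0994%). At an unadjusted limma p under 0.05 there were 4 (16%, beside 10.6% of all tested genes), 2 (8.0%, beside 10.9%) and 1 members (4.0%, beside 5.74%). The exact permutation test gave 0 in each, beside 1.98%, 3.29% and 1.68%. The Foxn1 window, with its peak at Pigs and Unc119, and the Foxp1 window each gave -0.67 (SE 0.23, limma adjusted p = 0.335) in FS against EpiSC_AFX. For FS below EpiSC_AF, 0 members had non-overlapping libraries on equal lists, beside 0.434% of genes. With a longer equal length, possible without ES, 1 did (Foxp2), beside 0.457%. The sum of forkhead peaks per library was 5.17 lower in FS than in EpiSC_AFX and 3.33 lower than in EpiSC_AF, with overlapping libraries. Without FS2, whose lists are shorter than those of FS1, limma called 0 members in both comparisons of FS with EpiSC and 3 in ES against FS. No share of all genes is given for this setting, so these counts cannot be read as more or fewer than among all genes.

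Foxo6 had the smallest adjusted p of the 25 members in each comparison with ES. It is a FoxO factor best known from the brain, and its span lies at chr4:120267078-120287261 (GRCm38, Gene ID 329934) with no other protein-coding gene in the window. On equal lists it had 1, 1 and 1 peaks in ES, 3, 3 and 4 in FS1, 2, 3 and 2 in FS2, 3, 3 and 3 in EpiSC_AF, 4, 4 and 3 in EpiSC_AFX1 and 3, 3 and 3 in EpiSC_AFX2. Every ES library was below every other library. On the log2(peaks + 1) scale ES was lower by -0.92 (SE 0.14, limma adjusted p = 0.000285) than FS, by -1.11 (SE 0.14, adjusted p = 3.51e-05) than EpiSC_AFX and by -1.0 (SE 0.162, adjusted p = 0.000601) than EpiSC_AF. The exact permutation p, before adjustment, was 0.0119 in each of the first 2 and 0.1 in the third, the smallest these designs allow. With windows reaching only 5 kb, the difference from FS was -0.46 (limma adjusted p = 0.133) and that from EpiSC_AF -0.58 (0.0966), so those calls were lost with the narrower window, while that from EpiSC_AFX was -0.72 and kept.

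The peaks of the Foxo6 window fell at few places. The region at chr4:120287657-120288214, 0.7 kb beyond the high-coordinate end of the span, was in 26 of 26 deposited lists, the Rd2 ES lists included, and in 17 of 18 equal lists. A region between genes, chr4:120252445-120253066, 14.3 kb below the low-coordinate end, was absent from all 3 ES lists and present in all 15 other first-set lists on equal length, in 3 of 4 EpiLC and in 2 of 2 Rd2 EpiSC lists. It was the only forkhead region of that kind, 0.469% of 213, beside 0.283% of all regions in gene windows. The region chr4:120282678-120283468, inside the gene, was absent from ES and present on equal lists in 4 of 6 FS, 3 of 3 EpiSC_AF and 6 of 6 EpiSC_AFX libraries. Another inside the gene, chr4:120277433-120277998, was also absent from ES and was listed in 3 of 6 FS, 1 of 3 EpiSC_AF and 5 of 6 EpiSC_AFX deposited lists. ES and the other types thus shared the peak at the end of the span and differed in the rest of the window.

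**Figure D4:**
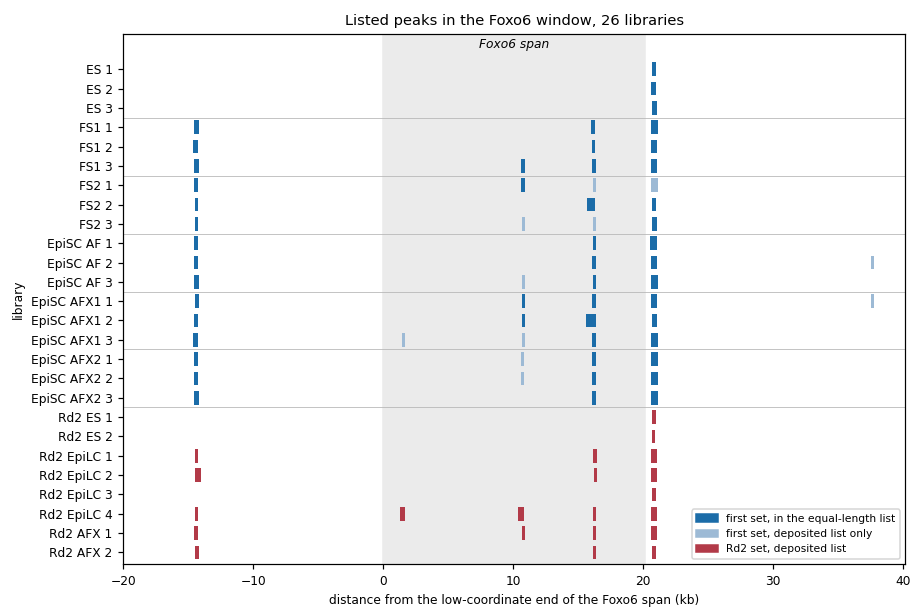
Listed peaks (bars) along the Foxo6 window, as distance in kb from the low-coordinate end of the span (horizontal axis; grey is the span), in each of 26 libraries (rows); dark blue peaks are in the equal-length list, light blue in the deposited list only, red in the Rd2 lists. The column just beyond the span is filled in all 26 libraries, while those 14.3 kb below and 16 kb into the span are empty in all ES libraries of both sets.

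The other FoxO genes moved less. Foxo1, required for the pluripotent state in human and mouse cells, had 1, 2 and 0 peaks in ES on equal lists, 2, 1 and 2 in FS1, 2, 1 and 1 in FS2, 1, 2 and 1 in EpiSC_AF, 2, 1 and 2 in EpiSC_AFX1 and 2, 2 and 1 in EpiSC_AFX2. The groups overlapped, and the difference of ES from EpiSC_AFX was -0.53 (SE 0.284, limma adjusted p = 0.236). Its start carried a peak in 2 of 3 ES and all other first-set libraries. Foxo3, a regulator of stress responses and of stem cell quiescence, had 1 peak in FS1 libraries 1 and 3 and in EpiSC_AFX2 library 3 and 0 in the other 15, so no group was parted from another. In the deposited lists Foxo3 had 0, 0 and 1 peaks in ES and 2 to 3 in EpiSC_AFX. Foxo4, the X-linked member, had 0, 1 and 0 peaks in ES, 0 to 1 in FS, 1 to 2 in EpiSC_AF and 0 to 2 in EpiSC_AFX. The 4 FoxO windows together held 2.33 ± 1.53 peaks in ES (SD, n = 3), 5.50 ± 1.64 in FS (n = 6), 5.67 ± 1.16 in EpiSC_AF (n = 3) and 6.17 ± 0.753 in EpiSC_AFX (n = 6). Among 19 genes of the insulin and AKT axis upstream and downstream of FoxO, 18 were tested. Irs1, an adaptor of the insulin receptor, was lower in ES in all 3 comparisons (1.33 ± 0.577 peaks, n = 3, against 2 in every other library; limma adjusted p from 0.0124 to 0.0365). Pdpk1, the kinase that activates AKT, was lower in ES than in FS (0.667 ± 0.577, n = 3, against 2 ± 0.632, n = 6). Of all tested genes, 10.6% were lower in ES than in FS, 11.6% than in EpiSC_AFX and 7.64% than in EpiSC_AF. The list's median difference was -0.01 against FS, -0.08 against EpiSC_AFX and -0.26 against EpiSC_AF, and 0 of 18 were called among FS, EpiSC_AF and EpiSC_AFX.

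Foxh1 encodes the factor through which Smad2 and Smad3 reach Nodal targets. On equal lists its window held 2, 1 and 2 peaks in ES, 3, 3 and 3 in FS1, 2, 4 and 3 in FS2, and 3 in every one of the 9 EpiSC libraries. ES did not overlap EpiSC and met FS at a value of 2. The log2 difference of ES was -0.59 (SE 0.136, limma adjusted p = 0.00769) from FS, -0.61 (SE 0.136, adjusted p = 0.00561) from EpiSC_AFX and -0.61 (SE 0.157, adjusted p = 0.0207) from EpiSC_AF. The gene is small (chr15:76667829-76671614, Gene ID 14106), and the region at its own end, chr15:76671357-76671873, which is also the end of Ppp1r16a, had a peak in all 18 libraries. The regions that differed lay at its neighbours. The region at chr15:76656798-76657171, inside Cyhr1, had a peak in 0 of 3 ES, 5 of 6 FS, 3 of 3 EpiSC_AF and 6 of 6 EpiSC_AFX libraries, and the one at the ends of Cyhr1 and Kifc2, chr15:76659666-76660391, in 2, 6, 3 and 6. With 5 kb windows the Foxh1 difference was 0 against both EpiSC types and -0.10 (limma adjusted p = 0.577) against FS. With peaks ranked by fold it was 0.36 (limma adjusted p = 0.444) against FS, -0.33 (0.474) against EpiSC_AFX and -0.47 (0.401) against EpiSC_AF, so each call was lost under both settings.

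The Nodal pathway around Foxh1 was followed with 16 partners and targets, of which 13 were tested. Nodal, the ligand, and Tdgf1, its co-receptor Cripto, were lower in ES than in EpiSC_AFX (limma adjusted p = 0.0453 and 0.0276) and in EpiSC_AF (0.0261 and 0.0313), and no other gene of the list passed. These were 2 of 13 in each comparison, where 11.6% and 7.64% of all tested genes were lower in ES. Against FS 0 of 13 were called, where 10.6% of all tested genes were lower in ES and 3.87% higher. The median differences of the list were -0.13 from FS, -0.40 from EpiSC_AFX and -0.53 from EpiSC_AF. Nodal had 0 peaks in ES, 0.167 ± 0.408 in FS (SD, n = 6), 1.67 ± 0.577 in EpiSC_AF (n = 3) and 1.17 ± 0.983 in EpiSC_AFX (n = 6). Between FS and EpiSC 0 of 13 passed the adjusted test, with a limma adjusted p for Nodal of 0.14 against EpiSC_AF and 0.307 against EpiSC_AFX.

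Foxd3, a repressor needed in the epiblast and neural crest, had 0 peaks in all 18 equal lists. Its window in the deposited lists held 0, 0 and 0 in ES, 1, 2 and 4 in FS1, 0, 0 and 1 in FS2, 2, 3 and 1 in EpiSC_AF, 1, 1 and 3 in EpiSC_AFX1 and 2, 2 and 2 in EpiSC_AFX2. The region most often listed, chr4:99641883-99642965, lay between genes 13.9 kb below the span and was present in 3 of 3 FS1, 0 of 3 FS2, 3 of 3 EpiSC_AF and 6 of 6 EpiSC_AFX lists. The FS1 lists are longer than the FS2 lists. At the longer equal length without ES, the Foxd3 window held 0, 0 and 0 peaks in FS1 and 0, 0 and 1 in FS2. The cause of the difference between the lines in the deposited lists was not tested.

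Foxj1, the master factor of motile cilia, was at 0 in the 3 ES libraries and at 1, 1 and 1 in FS1, 1, 2 and 0 in FS2, 1, 0 and 1 in EpiSC_AF and 1 in each of the 6 EpiSC_AFX libraries. ES overlapped FS and EpiSC_AF only where those libraries were at 0. The log2 difference was -0.93 (SE 0.264, limma adjusted p = 0.0248) from FS and -1.0 (SE 0.264, adjusted p = 0.0159) from EpiSC_AFX, and it missed the threshold against EpiSC_AF (-0.67, adjusted p = 0.192). The call against FS was lost without any 1 of the 3 ES libraries (adjusted p from 0.0717 to 0.0781) and that against EpiSC_AFX without ES replicate 3 (0.0506). The call against FS was also lost with peaks ranked by fold (-0.76, limma adjusted p = 0.134) and with −log10 q of at least 5 (-0.50, 0.228). The peak lay at chr11:116335218-116335890, where the ends of Foxj1 and Rnf157 meet, so the genes cannot be told apart.

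Among the members linked to growth, cell cycle and metabolism, Foxj2, Foxk1, Foxk2, Foxm1, Foxn2 and Foxn3 carried peaks on equal lists in every cell type and Foxj3 in 2 libraries. Foxj2 had 2, 1 and 2 peaks in ES, 1, 2 and 3 in FS1, 1, 3 and 1 in FS2, 3, 3 and 3 in EpiSC_AF, 2, 2 and 2 in EpiSC_AFX1 and 3, 3 and 3 in EpiSC_AFX2 on equal lists. ES stood below EpiSC_AF without overlap (-0.61, SE 0.274, limma adjusted p = 0.184) and overlapped FS and EpiSC_AFX. Its most constant region, chr6:122810682-122811910, 8.9 kb below the span, was in 26 of 26 deposited lists, while one inside the gene, chr6:122826086-122826751, was absent from ES and present in 5 of 6 FS, 3 of 3 EpiSC_AF and 6 of 6 EpiSC_AFX deposited lists, and in 3, 3 and 5 equal lists. The start of Foxk2 and a region inside Foxk1 (chr5:142440118-142440934), repressors that act in nutrient and autophagy control, were in all 18 deposited first-set lists. Foxk1 had 3, 3 and 2 peaks on equal lists in ES, 3 in every FS1 and EpiSC library, and 0, 2 and 0 in FS2. Foxm1, the driver of mitotic genes, had 1 or 2 peaks in every library, and the region counted for it in all 18 (chr6:128355488-128356172) lay at the ends of Tulp3 and Rhno1. The 7 members of this role together held 9 ± 1 peaks in ES (SD, n = 3), 7.67 ± 2.88 in FS (n = 6), 11 ± 1 in EpiSC_AF (n = 3) and 10.7 ± 0.516 in EpiSC_AFX (n = 6).

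Foxp1, a repressor with an isoform specific to embryonic stem cells, had weak peaks that were listed outside ES. On equal lists it had 0, 0 and 0 in ES, 0 in FS except 1 in FS2 library 3, 0, 0 and 1 in EpiSC_AF, 1, 1 and 1 in EpiSC_AFX1 and 1, 1 and 0 in EpiSC_AFX2. The deposited lists gave 0 in all 3 ES and both Rd2 ES lists, 3, 4 and 8 in FS1, 2, 2 and 1 in FS2, 4, 3 and 5 in EpiSC_AF, 5, 4 and 8 in EpiSC_AFX1, 7, 6 and 6 in EpiSC_AFX2, 3, 7, 3 and 11 in EpiLC and 3 and 1 in Rd2 EpiSC. ES was thus below every other library. The gene spans chr6:98925342-99522746 and RefSeq gives it 3 starts. The one at 99028298 had a peak in 0 of 3 ES, all FS and EpiSC first-set libraries and 4 of 4 EpiLC in the deposited lists, and in 5 of 18 equal lists. The regions at the other starts were in 0 of 18 equal lists. The start at 99520993, nearest the high-coordinate end, lay in a region listed in 0 of 3 ES, 3 of 6 FS, 3 of 3 EpiSC_AF, 5 of 6 EpiSC_AFX and 2 of 4 EpiLC libraries. The start between them, at 99266515, lay in a region, chr6:99265808-99266690, listed in 4 of 4 EpiLC, 1 of 6 EpiSC_AFX and none of the other libraries. The promoter window of this start had a peak in only 1 of 4 EpiLC and 1 of 6 EpiSC_AFX lists. The ES lists are the shortest of the first set, which bears on every absence in the deposited lists. Over the family, 20 of 43 members were lower in ES than in EpiSC_AFX without overlap there, beside 27.0% of genes, 20 against EpiSC_AF, beside 24.8%, and 5 against FS, beside 10.1%.

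Across the deposited lists, 6 forkhead regions were in no ES list and in all 15 other first-set lists (2.82% of 213, beside 1.54% of all regions in gene windows). They were the 2 Foxo6 regions named above, the shared end of Foxj1 and Rnf157, the start of Foxi3, the start of Foxp1 at 99028298 and the end of Foxp4. On equal lists the Foxj1 region was kept in 13 of 18 libraries, the Foxi3 region in 12, the Foxp1 region in 5 and the Foxp4 region in 0, all outside ES. Foxi3, a factor of the branchial arches and placodes, showed both patterns. The region at its start (chr6:70956134-70957013) was in 0 of 3 ES and all 15 other lists, and one 3.2 kb beyond the span (chr6:70963703-70964907) was in 3 of 3 ES, 5 of 6 FS, 3 of 3 EpiSC_AF and 6 of 6 EpiSC_AFX. On equal lists the latter was kept in 2 of 3 ES, 2 of 6 FS, 1 of 3 EpiSC_AF and 0 of 6 EpiSC_AFX libraries. In all 18 equal lists there were 4 forkhead regions (1.88%, beside 2.56% of all regions), those at the start of Foxk2, the end of Foxh1, below Foxj2 and in the Foxm1 window. No forkhead region was in all 3 ES and none of the 15 other equal lists, beside 0.379% of all regions.

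The following loci were chosen after their values were seen. A region inside Foxn3, a checkpoint repressor, at chr12:99412021-99413135 was in 0 of 3 ES, 0 of 6 FS, 3 of 3 EpiSC_AF, 6 of 6 EpiSC_AFX, 4 of 4 EpiLC and 1 of 2 Rd2 EpiSC lists. One inside Foxp1 at chr6:99078961-99079584 was in 0 of 6 FS, 2 of 3 EpiSC_AF and 6 of 6 EpiSC_AFX. These were the 2 forkhead regions in 0 of 6 FS and at least 8 of 9 EpiSC lists, 0.939% of 213, beside 0.0573% of all regions. On equal lists each was in 0 of 3 EpiSC_AF and 1 of 6 EpiSC_AFX libraries and in no FS library. At the longer equal length, which leaves out ES, both were in 1 of 3 EpiSC_AF libraries, the Foxn3 region in 3 of 6 and the Foxp1 region in 2 of 6 EpiSC_AFX libraries, and neither in FS. Their presence in most EpiSC libraries thus rests on the deposited lists.

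EpiLC, the transient state between ES and EpiSC, had the Foxn3 region in 4 of 4 lists and the Foxp1 region in 2 of 4. Foxp4, a FoxP repressor, had 3, 6, 2 and 6 peaks in EpiLC and 1 and 1 in Rd2 EpiSC. It was among the 2 members higher in EpiLC than in Rd2 EpiSC without overlap, beside 2.01% of genes, and 0 members were lower, beside 0.219%. Compared with Rd2 ES, 11 members were higher without overlap, beside 27.2% of genes. Regions in 4 of 4 EpiLC and 0 of 6 FS lists numbered 3 (1.41% of 213, beside 0.146% of all regions). The Foxn3 region, chosen after its values were seen, already had this pattern, so the shares are no test of it. Among them were the Foxn3 region above and the middle start of Foxp1. The shortest peak was 110 bp in the Rd2 lists and 150 bp in the others, and list lengths differ, so these counts set lists side by side and carry no test. Forkhead peaks per 1000 listed peaks were 3.67 ± 0.132 in EpiLC (SD, n = 4), 3.45 ± 0.397 in Rd2 EpiSC (n = 2), 3.19 ± 0.339 in FS (n = 6), 3.64 ± 0.194 in EpiSC_AF (n = 3), 3.63 ± 0.233 in EpiSC_AFX (n = 6) and 1.99 ± 0.429 in ES (n = 3). The Rd2 ES libraries gave 6.37 and 2.33, from 3 and 6 forkhead peaks, and the former is above the mean of every other group.

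**Figure D5:**
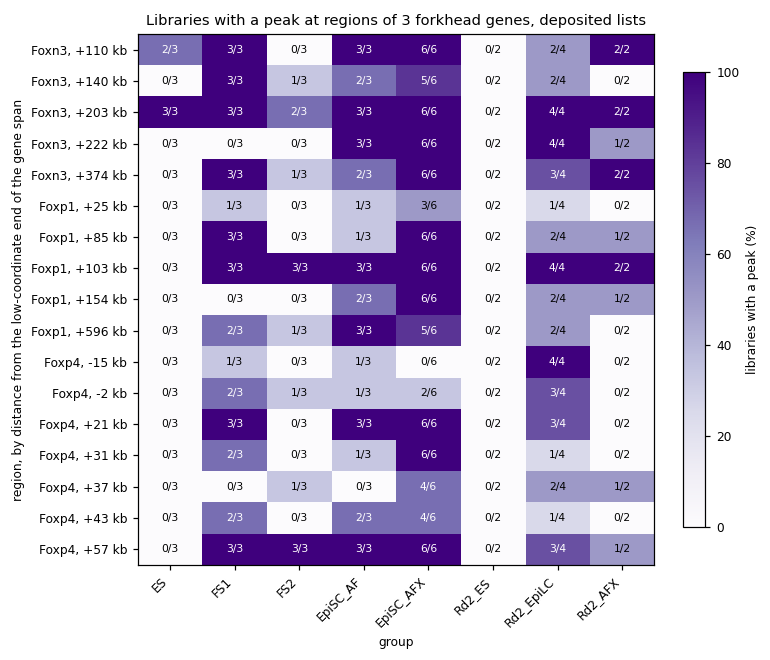
Share of libraries of each group (columns) with a peak in the deposited lists (colour, and count over libraries) at the regions of Foxn3, Foxp1 and Foxp4 that were in at least 6 of 26 lists (rows, by kb from the low-coordinate end of the span). The Foxn3 row at 222.5 kb reads 0 of 3 in both FS groups and 3 of 3, 6 of 6 and 4 of 4 in EpiSC_AF, EpiSC_AFX and EpiLC.

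Of the 12 lineage members tested, Foxj1 was the only one called. It was lower in ES than in FS and in EpiSC_AFX, where 10.6% and 11.6% of all tested genes were lower. Its peak lay at the end shared with Rnf157. Foxa3 (a liver factor) had a peak on equal lists in 14 of 18 libraries and Foxr1 in 10, the latter 0 in all ES. The 26 lineage windows together held 3.33 ± 2.52 peaks in ES (SD, n = 3), 6.17 ± 2.14 in FS (n = 6), 4.67 ± 0.577 in EpiSC_AF (n = 3) and 7 ± 2.37 in EpiSC_AFX (n = 6). Within FoxP, Foxp3, the factor of regulatory T cells, had a peak in 14 of 18 equal lists, and its most frequent region (chrX:7573993-7574930) lay at the end of Ppp1r3f. Foxp2, known from speech and striatal circuits, had a peak on equal lists in EpiSC_AF 1 and 2 and EpiSC_AFX1 2.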

How the data were processed

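Peaks of 26 ATAC-seq libraries (18 in the first set, 8 in Rd2) were taken as deposited, with 1 list for each library. The submitters' processing notes name Trim Galore, Bowtie, Picard, MACS2 and the build mm10, without versions or order. In the deposited lists a peak carries a fold (a ratio), a −log10 p and a −log10 q, per the file layout; the deposited score was not used. These values ranked or filtered peaks within a list only. Each library started from 50000 cells, per the labels' protocols. No read counts were used, so depth is unknown and no counting interval is given.

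Genes came from a RefSeq table (GRCm38.p6, the assembly of mm10); symbols were matched by pattern. Peaks overlapping the span plus 20 kb by 1 bp were counted, on the 8044 peaks of highest −log10 p per first-set list or on deposited lists. Genes with a peak in at least 3 of 18 libraries and not the same number in all (13075) were tested on log2(peaks + 1) with limma 3.58.1 (trend, 4 cell types, FS joining FS1 and FS2, EpiSC_AFX joining both lines), Benjamini-Hochberg adjusted, threshold 0.05, and with a 2-sided exact permutation test (SciPy 1.17.1). The script was tested on simulated data. Calls are given beside the percent of all genes called. Within groups, at most 0.0746% of peaks had identical coordinates in a pair of libraries. Results for 1 member and 1 gene of the AKT list are not reported here, though counts and totals include them. Rd2 lists were not tested, because list lengths differed up to 471 against 26045.

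Values in every library were given for members called or not overlapping on equal lists and for Foxd3, Foxh1, Foxo1, Foxo3 and Foxp1. The members and lists were chosen with earlier results of these data known. Alternatives were deposited lists, ranking by fold, −log10 q of at least 5, peak midpoints, 5 kb windows, a pseudocount of 0.5, a filter of a peak in at least 1 library, a replicate block, the exact test and leaving out each library. A longer equal length without ES (11796 peaks) and leaving out FS2 were added after seeing the data.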

Additional observations from a re-analysis of the deposited data

Results flagged for a closer look

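In groups of 4 to 6 libraries, 59 sets of values were checked for a library standing apart by Dixon's criterion and 8 were found. Chance gives about 1 in 20 for continuous values, a rate that does not hold for these counts. Most values are small whole numbers, so a single peak can flag a library, and 8 of 59 cannot be read as an excess. In the deposited lists, Foxi3 was at 1 in FS2 library 3 beside 2 in the other FS libraries, and at 3 in EpiLC library 4 beside 2. EpiLC library 3, whose list is the shortest of the 4, had 1 peak at Foxh1 beside 3 and 0 at Foxj1 beside 2. On equal lists, Foxn3 was at 3 in FS1 library 3 beside 0 to 1 in the other FS libraries, Foxp1 at 1 in FS2 library 3 beside 0, Foxp1 at 0 in EpiSC_AFX2 library 3 beside 1, and Foxo3 at 1 in that same library beside 0.

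Foxk1 lay above the ES mean in every FS1 library (mean difference 0.333 peaks) and below it in every FS2 library (mean difference -2 peaks) on equal lists. At the longer equal length without ES it had 3 peaks in each FS1 library and 1, 3 and 2 in FS2, so the lines overlapped. The difference between the lines was not tested.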

How the results depend on the processing

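Counting peak midpoints, a pseudocount of 0.5 and a peak in at least 1 library as the filter left every direction and each named gene's side of the threshold as reported, and counts of calls within 1.5 times; where other settings moved a value it is given here, and the cause was not tested. No share of all genes is given for forkhead calls under altered settings, or for most counts without overlap in this section. These counts therefore cannot be read as more or fewer than among all genes. With deposited lists, genes called were 6573 (ES against FS), 9923 (EpiSC_AFX) and 6047 (EpiSC_AF), beside 1892, 2058 and 1367. There forkhead calls were 19, 27 and 22, and forkhead peaks per library differed by -44.83, -70.5 and -56. Members without overlap, lower in ES, were 5, 20 and 20, beside 10.1%, 27.0% and 24.8% of all genes. With −log10 q of at least 5, genes called were 896, 7114 and 4735, forkhead calls 12 (EpiSC_AFX) and 8 (EpiSC_AF), peak differences -14.33, -27.17 and -22, and members without overlap 2, 9 and 9. With 5 kb windows, genes called were 1150 (FS) and 1231 (EpiSC_AFX), forkhead calls 1 (FS) and 0 (EpiSC_AF), peak differences -1.167, -6.667 and -5.667, and 0 members were without overlap against FS. The exact permutation test called 0 genes in all 6 comparisons, forkhead genes included. Foxh1 against FS reversed to 0.36 with peaks ranked by fold.

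For FS against EpiSC_AFX, FS against EpiSC_AF and EpiSC_AF against EpiSC_AFX, genes called were 25, 32 and 13. They were 10, 1 and 2 with deposited lists, 0 and 2 in the last 2 with −log10 q of at least 5, 18 and 0 in the last 2 with the longer equal length without ES, and 56 and 70 in the first 2 without FS2. Peak differences, -5.167, -3.333 and -1.833, were -25.67, -11.17 and -14.5 with deposited lists and -12.83, -7.667 and -5.167 with −log10 q of at least 5; ranking by fold gave 0 for EpiSC_AF against EpiSC_AFX. Members lower in FS than EpiSC_AF without overlap were 1 with deposited lists and 1 with the longer length (Foxp2). Without FS2, 3 members were lower in ES than FS without overlap.

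Leaving out each library, genes called ranged from 1189 to 1933 (ES against FS), 1428 to 1985 (EpiSC_AFX), 788 to 1125 (EpiSC_AF), 10 to 59, 23 to 60 and 5 to 33 in the order above. Forkhead calls ranged from 1 to 3, 2 to 5 and 1 to 2, and from 0 to 1 for FS against EpiSC_AF (Foxp2, adjusted p = 0.0441 by limma without EpiSC_AF replicate 3). The 5 calls against EpiSC_AFX added Foxn1, whose peak lay at Pigs and Unc119, and Foxp1 (adjusted p = 0.0132 by limma) without EpiSC_AFX2 replicate 3. Foxh1 lost its call against FS without ES replicate 2 (adjusted p = 0.0625) and against EpiSC_AF without that library (0.0941) or any EpiSC_AF library (0.0571 to 0.0594). Peak differences ranged from -8.5 to -5.067, -13.67 to -10.67 and -11.83 to -8.833 for ES, and -6.767 to -3.967, -4.933 to -2.133 and -2.467 to -1.167 for the rest. Members without overlap, lower in ES, ranged from 1 to 2, 3 to 5 and 3 to 4, and from 0 to 1 for lower in FS than EpiSC_AF.

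The replicate numbers do not pair the libraries: deviations of same-numbered libraries correlated at -0.00149 on average and 6 of 18 libraries matched their own number best. With the replicate block, genes called were 1803, 2041, 1357, 17, 31 and 11 in the order above, and forkhead calls were 3, 3 and 2 against ES.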

Other observations

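Limits of these values are that a peak count does not measure how open a site is, that windows hold peaks of neighbours for 27 of 43 members, and that lines, passages and media differ together with the cell types. The ES lists are the shortest of the first set, and the starts of Foxp1 and Foxp4 and the EpiSC regions in Foxn3 and Foxp1 were mostly lost from all cell types at equal length. Rd2 ES lists of 471 and 2576 peaks hold 3 and 6 forkhead peaks.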
